A study of Mus musculus with 2 samples.

Results

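The genes described here are the chemokines and chemokine receptors, taken by symbol from the mRNA-seq table: every gene whose whole symbol is Ccl, Ccr, Cxcl, Cxcr or Ackr with its number, together with *Xcl1*, *Xcr1*, *Cx3cl1*, *Cx3cr1*, *Pf4*, *Ppbp* and *Gm1987*, a *Ccl21*-type gene. The rule reads symbols and no measured value, although it was drawn up with earlier results of these data known. It gave 56 of the 18159 genes listed, 35 ligands and 21 receptors. Chemokines are small secreted proteins that steer leukocytes along gradients by binding G protein-coupled receptors on their surface. Inflammatory chemokines are induced by cytokines and microbial signals and recruit monocytes, granulocytes and effector T cells, whereas homeostatic ones place cells in healthy tissue and lymphoid organs. Atypical receptors bind chemokines without the usual G protein signal and clear or redistribute them. In the gut wall, resident macrophages of the muscle layer and the monocytes that replenish them are among the cells that carry these receptors.

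The tissue was jejunal smooth muscle, the tunica muscularis, of mice aged 15 days on a C57BL/6 background. In the *Dnmt1*-KO group, *Dnmt1*, the maintenance DNA methyltransferase, was deleted by a *Cre-eGFP* transgene under the *Myh11* promoter (*smMHC* Cre-eGFP/+; Dnmt1-/-), and the *Dnmt1*-WT group carried the same *Cre-eGFP* transgene. The strain label gives the *Myh11*-driven Cre and EGFP transgene with *Dnmt1* lox/lox for both samples, and the free-text description names the knockout for both, so the groups rest on the titles and the genotype labels. The *Myh11* promoter restricts the deletion to smooth muscle cells, while the RNA came from whole tissue that also holds vessels, fibroblasts, nerves and leukocytes. Each genotype was represented by 1 library. How RNA of several mice was combined in it is not stated, so that no difference between the genotypes has a replicate check, and genotype cannot be told apart from the handling of the sample. In bulk tissue, fewer cells of a type and less RNA per cell also cannot be told apart.

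Values are FPKM, sequenced fragments divided by the length of the transcript and by the mapped total, which allow levels of different genes to be set side by side. *Dnmt1* stood at 11.58 FPKM in *Dnmt1*-WT beside 7.58 in *Dnmt1*-KO, a ratio of 0.655. *Myh11*, the smooth muscle myosin heavy chain, stood at 2685.29 and 1255.51 FPKM, a ratio of 0.468. The *Dnmt1* value lay on the side the labels give. The table lists FPKM to 2 decimals and no read counts, so the depth behind a value is unknown from it and no counting interval was computed. Neither library held a value between 0 and 0.03 FPKM, and ratios that start from a few hundredths of an FPKM are imprecise.

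Most chemokine and receptor transcripts were higher in the *Dnmt1*-KO library, and the homeostatic CXC ligands *Cxcl14* and *Cxcl12* were the main exceptions. Of the 53 members above 0 FPKM in either library, 46 (86.8%) were higher in *Dnmt1*-KO by any amount and 7 were lower, whereas 51.5% of the 17585 such genes in the table were higher and 48.0% lower. *Ccl4*, *Cxcl5* and *Cxcl11* were listed at 0 in both libraries. There were 13 members listed at 0 in *Dnmt1*-WT and above 0 in *Dnmt1*-KO, or 24.5% against 5.42% of all genes, and 2, *Cxcl15* and *Ccr6*, with the opposite pattern, which 3.01% of all genes showed.

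The fold threshold was a *Dnmt1*-KO FPKM of at least 2 times, or at most 0.5 times, the *Dnmt1*-WT FPKM, in genes with at least 1 FPKM in at least 1 library. A gene listed at 0 in the other library was counted too. Of the 56 members, 30 reached 1 FPKM, of which 20 (66.7%) were higher past this threshold, 1 was lower and 9 lay between. Among all 13865 genes that reached 1 FPKM, 9.62% were higher and 3.79% lower. These counts lean towards *Dnmt1*-KO by their construction, because 13 of the 30 members reached 1 FPKM only in that library, none only in *Dnmt1*-WT, and such genes had to differ. With a mean of at least 1 FPKM over both libraries required instead, 15 of 25 members were higher past the threshold, against 8.25% of all genes. The median log2 ratio was 1.64 over the members that reached 1 FPKM and were above 0 in both libraries, beside -0.01 for all such genes. The filter acts on this median too, which was 1.41 with all genes above 0 in 1 library and 1.27 with a mean of at least 1 FPKM. The 16 members called higher with a value above 0 in *Dnmt1*-WT had ratios from 2.38 to 75.3, with a median of 5.59.

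**Figure D1:**
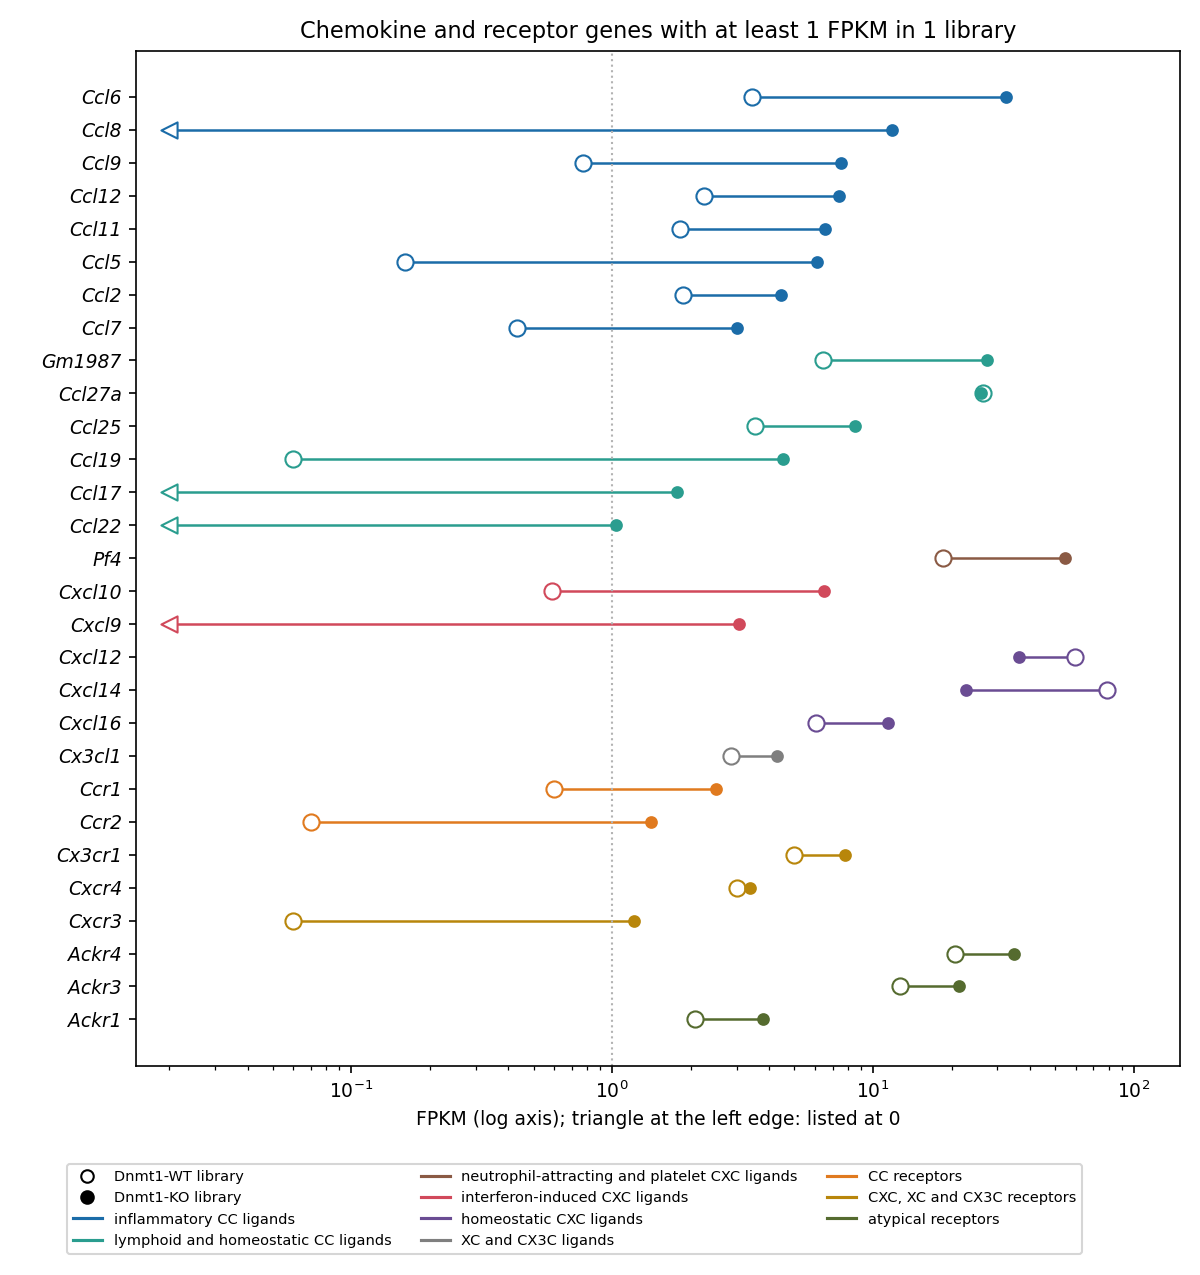
FPKM (log axis) of 29 of the 30 chemokine and receptor genes with at least 1 FPKM in at least 1 library, grouped by role. Open circles are the *Dnmt1*-WT library and filled circles the *Dnmt1*-KO library, 1 value each, and open triangles at the left edge mark genes listed at 0 in *Dnmt1*-WT; *Cxcl14*, *Cxcl12* and *Ccl27a* are the members whose filled circle lies to the left of or on the open one.

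Every inflammatory CC ligand that reached 1 FPKM was higher in *Dnmt1*-KO past the 2-fold threshold, 8 of the 11 listed, with a median log2 ratio of 2.80. Their summed level went from 11.88 to 80.58 FPKM. Of the 8, 4 reached 1 FPKM only in the *Dnmt1*-KO library. *Ccl6*, a ligand of the receptor *Ccr1* made by myeloid cells, had the highest level of the group, 32.27 FPKM in *Dnmt1*-KO beside 3.45 in *Dnmt1*-WT, a ratio of 9.35. *Ccl9*, a related *Ccr1* ligand, stood at 7.54 beside 0.77 FPKM, a ratio of 9.79, or 4.82 with a pseudocount of 1 FPKM. *Ccl5*, a T cell and macrophage product that binds *Ccr1* and *Ccr3* among other receptors, stood at 6.12 FPKM in *Dnmt1*-KO and 0.16 in *Dnmt1*-WT. Its ratio of 38.3 ranked 25 among the 13769 genes that reached 1 FPKM and were above 0 in both libraries. This ratio depends on the low *Dnmt1*-WT value and came to 23.9 with a pseudocount of 0.1 FPKM and to 6.14 with 1 FPKM. *Ccl11*, the eosinophil-attracting ligand of *Ccr3*, stood at 6.55 beside 1.82 FPKM, a ratio of 3.60.

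The monocyte-attracting ligands of *Ccr2* were all higher in *Dnmt1*-KO. *Ccl8* was listed at 0 in *Dnmt1*-WT and at 11.79 FPKM in *Dnmt1*-KO, the highest level of any member listed at 0 in *Dnmt1*-WT. *Ccl12* stood at 7.40 beside 2.24 FPKM, a ratio of 3.30, and *Ccl2*, the classical monocyte chemoattractant, at 4.45 beside 1.87 FPKM, a ratio of 2.38. With a pseudocount of 1 FPKM the ratio of *Ccl2* came to 1.90, which did not reach the threshold. *Ccl7* stood at 3.0 beside 0.43 FPKM, a ratio of 6.98, or 2.80 with a pseudocount of 1 FPKM. Together these ligands made up 26.64 FPKM in *Dnmt1*-KO and 4.54 in *Dnmt1*-WT, a ratio of 5.87, with *Ccl8* the largest share in *Dnmt1*-KO. By contrast *Ccl3*, *Ccl4* and *Ccl24* stayed under 1 FPKM in both libraries, *Ccl3* at 0.45 in *Dnmt1*-WT and 0.73 in *Dnmt1*-KO and *Ccl24* at 0.69 and 0.73.

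The promoters of *Ccl8* and *Ccl6* are shown because these genes had the highest *Dnmt1*-KO levels among the inflammatory CC ligands and because CpG, the dinucleotide that DNMT1 keeps methylated, was sparse in them. Each runs 5′ to 3′ from 250 bases before to 50 bases after a RefSeq transcript start (GRCm38.p6), chr11:82114935-82115234, plus strand, for *Ccl8* and chr11:83593038-83593337, minus strand, for *Ccl6*, and capitals mark each CG.
Ccl8: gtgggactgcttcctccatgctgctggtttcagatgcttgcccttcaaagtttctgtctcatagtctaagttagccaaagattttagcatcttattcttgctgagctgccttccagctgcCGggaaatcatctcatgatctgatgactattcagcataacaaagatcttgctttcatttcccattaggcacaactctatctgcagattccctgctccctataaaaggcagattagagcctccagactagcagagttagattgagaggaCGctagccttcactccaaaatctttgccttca
Ccl6: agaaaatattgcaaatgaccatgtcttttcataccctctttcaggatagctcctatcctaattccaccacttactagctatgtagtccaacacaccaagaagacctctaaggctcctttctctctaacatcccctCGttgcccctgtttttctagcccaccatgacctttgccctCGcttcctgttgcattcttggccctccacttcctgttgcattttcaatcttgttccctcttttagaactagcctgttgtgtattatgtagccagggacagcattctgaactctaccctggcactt

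Both windows of 300 bases held 2 CpG. Among all 32851 promoters of the RefSeq table the median was 7, and among those of genes that reached 1 FPKM it was 20. Sparse CpG was a reason for showing these windows, so their counts add nothing to that choice. The median was 3 for promoters of members called higher and also for those of members under 1 FPKM.

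Of the lymphoid and homeostatic CC ligands, 6 of 8 reached 1 FPKM, and 5 of these were higher in *Dnmt1*-KO past the threshold. Of the 6, 3 reached 1 FPKM only in that library (*Ccl17*, *Ccl19* and *Ccl22*), and with a mean of at least 1 FPKM 3 of 4 were higher. *Gm1987*, which encodes a *Ccl21*-type ligand of *Ccr7*, stood at 27.25 FPKM in *Dnmt1*-KO and 6.42 in *Dnmt1*-WT, a ratio of 4.24. CCL21 is made by lymphatic endothelium and draws dendritic cells and naive T cells. *Ccl21a*, *Ccl21b* and *Ccl21c* are not among the genes listed, and reads of these near-identical copies cannot be told apart here, so the *Gm1987* value may hold reads of several copies. *Ccl19*, the other *Ccr7* ligand, stood at 4.52 FPKM in *Dnmt1*-KO and 0.06 in *Dnmt1*-WT. Its ratio of 75.3 was the highest among members with a value in both libraries and ranked 10 among the 13769 genes, and it came to 28.9 with a pseudocount of 0.1 FPKM and to 5.21 with 1 FPKM. The sum of *Ccl19* and *Gm1987* was 6.48 FPKM in *Dnmt1*-WT beside 31.77 in *Dnmt1*-KO, a ratio of 4.90.

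*Ccl25*, the ligand of *Ccr9* that attracts T cells to the small intestine and is made by its epithelium, stood at 8.54 beside 3.53 FPKM, a ratio of 2.42. The *Ccr4* ligands *Ccl17* and *Ccl22*, products of dendritic cells and macrophages, were listed at 0 in *Dnmt1*-WT and at 1.77 and 1.03 FPKM in *Dnmt1*-KO. *Ccl27a*, an epithelial ligand of *Ccr10*, was among the highest ligands in both libraries and hardly differed between them, at 26.43 FPKM in *Dnmt1*-WT beside 26.04 in *Dnmt1*-KO, a ratio of 0.985 that turned to 1.01 with median centring or upper quartile scaling. *Ccl20* stood at 0.05 and 0.92 FPKM, and *Ccl28* at 0.27 and 0.22.

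Of the interferon-induced CXC ligands, which attract activated T cells through *Cxcr3*, both that were detected were higher in *Dnmt1*-KO. *Cxcl10* stood at 6.51 FPKM in *Dnmt1*-KO and 0.59 in *Dnmt1*-WT, a ratio of 11.0, or 4.72 with a pseudocount of 1 FPKM. *Cxcl9* was listed at 0 in *Dnmt1*-WT and at 3.06 FPKM in *Dnmt1*-KO. Both reached 1 FPKM only in the *Dnmt1*-KO library. *Cxcl11*, listed at 0 in both, is annotated as a transcribed pseudogene in RefSeq.

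Promoters were searched on both strands for GAAA followed, after any 2 bases, by a further GAAA, the form of the elements that interferon-activated factors bind. It was present in 3.44% of all promoters, in 5.34% of those of all genes higher past the threshold and in 3 of the 45 promoters of members (6.67%). These were the promoters of *Cxcl10* and *Ccl19*, which were higher in *Dnmt1*-KO, and of *Cxcl14*, which was lower. The windows of *Cxcl10* (chr5:92348840-92349139, minus strand) and *Ccl19* (chr4:42756316-42756615, minus strand) are given because these genes had the highest ratios among members of their groups above 0 in both libraries, *Cxcl10* being the only such member of its group, with the match in capitals.
Cxcl10: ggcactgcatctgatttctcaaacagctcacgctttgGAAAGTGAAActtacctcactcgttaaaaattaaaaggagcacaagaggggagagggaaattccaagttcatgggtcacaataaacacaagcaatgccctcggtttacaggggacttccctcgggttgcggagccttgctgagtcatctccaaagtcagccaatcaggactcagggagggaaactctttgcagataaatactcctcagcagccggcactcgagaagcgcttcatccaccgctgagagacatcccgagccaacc
Ccl19: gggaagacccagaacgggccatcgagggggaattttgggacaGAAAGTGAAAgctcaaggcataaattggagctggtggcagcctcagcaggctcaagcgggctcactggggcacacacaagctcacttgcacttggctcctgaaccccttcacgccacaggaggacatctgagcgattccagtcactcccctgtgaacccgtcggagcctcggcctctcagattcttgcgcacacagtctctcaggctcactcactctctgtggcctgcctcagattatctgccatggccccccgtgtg

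The match lay from -213 to -204 in *Cxcl10* and from -208 to -199 in *Ccl19*, counted from the transcript start, and had the same letters in both.

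The neutrophil-attracting CXC ligands were near the lower limit of the table in both libraries. *Cxcl1* stood at 0.17 FPKM in *Dnmt1*-WT beside 0.36 in *Dnmt1*-KO, *Cxcl2* at 0 and 0.05, *Cxcl15* at 0.13 and 0, and *Cxcl5* at 0 in both. *Cxcr2*, their receptor on neutrophils, stood at 0.19 and 0.42 FPKM. The platelet chemokine *Pf4*, grouped with them by sequence, was of another order. It stood at 54.41 FPKM in *Dnmt1*-KO, the highest level of any member in that library, and at 18.55 in *Dnmt1*-WT, a ratio of 2.93. *Ppbp*, the other platelet chemokine, was listed at 0 in *Dnmt1*-WT and at 0.41 FPKM in *Dnmt1*-KO.

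Among the homeostatic CXC ligands none was higher past the threshold, and the most abundant were lower. *Cxcl14*, a constitutive chemokine of epithelia and mesenchyme, was the highest of all members in *Dnmt1*-WT at 79.00 FPKM and ranked 7 in *Dnmt1*-KO at 22.80, a loss of 71.1% (ratio 0.289). It was the only one of the 30 members past the threshold in the lower direction. *Cxcl12*, the stromal ligand of *Cxcr4* and *Ackr3*, stood at 59.47 and 36.34 FPKM, 38.9% lower in *Dnmt1*-KO, which did not reach the threshold. *Cxcl16*, a membrane-bound ligand of *Cxcr6* on macrophages and dendritic cells, stood at 6.05 and 11.41 FPKM, a ratio of 1.89. *Cxcl13*, the B cell attractant of lymphoid follicles, stood at 0.29 and 0.56 FPKM and *Cxcl17* at 0 and 0.25. *Cx3cl1*, the membrane-bound fractalkine that binds *Cx3cr1*, stood at 2.85 and 4.29 FPKM, a ratio of 1.51, and *Xcl1*, the ligand of *Xcr1*, at 0 and 0.49.

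The ligand transcripts differed in make-up as well as in sum. The 35 ligands summed to 215.74 FPKM in *Dnmt1*-WT beside 291.81 in *Dnmt1*-KO, a ratio of 1.35. *Cxcl12* and *Cxcl14* together made up 64.2% of the ligand FPKM of the *Dnmt1*-WT library and 20.3% of that in *Dnmt1*-KO, going from 138.47 to 59.14 FPKM, a pair singled out after its values were seen. The whole homeostatic CXC group of 5 ligands went from 144.81 to 71.36 FPKM. All ligands but *Cxcl12* and *Cxcl14* went from 77.27 to 232.67 FPKM, a ratio of 3.01. In order of level the *Dnmt1*-WT library was led by *Cxcl14*, *Cxcl12*, *Ccl27a*, *Ackr4* and *Pf4*, and the *Dnmt1*-KO library by *Pf4*, *Cxcl12*, *Ackr4*, *Ccl6* and *Gm1987*. With 1 library per genotype there is no spread against which neighbours in these orders could be separated.

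The single RefSeq promoter window of *Cxcl14* held 22 CpG, and it lies around a transcript start 260 bases inside the gene as RefSeq bounds it. The promoter of *Cxcl12* held 20.

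**Figure D2:**
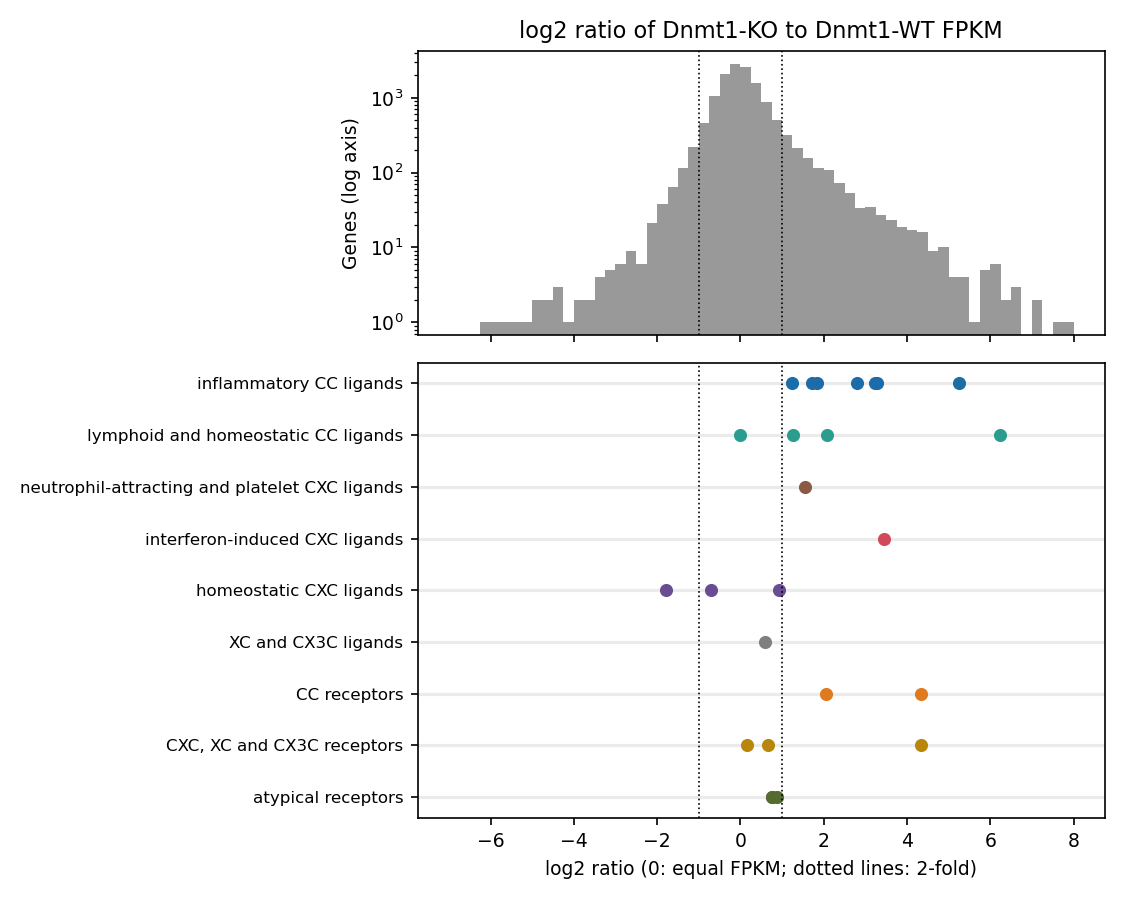
Top, number of genes (log axis) by log2 ratio of *Dnmt1*-KO to *Dnmt1*-WT FPKM for the 13769 genes that reached 1 FPKM and were above 0 in both libraries. Bottom, 1 point for each of 25 chemokine or receptor genes on the same axis, grouped by role, with dotted lines at a 2-fold ratio in each direction; the inflammatory CC ligands and CC receptors lie to the right of the lines and *Cxcl14* to the left, while the 4 ligands listed at 0 in *Dnmt1*-WT have no ratio and are left out.

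Receptors were fewer and summed to less FPKM than ligands. By any amount 19 of the 21 were higher in *Dnmt1*-KO, against 51.5% of all genes above 0 in either library. Of 21 receptors 9 reached 1 FPKM, and 4 were higher past the threshold and none lower. These 4 reached 1 FPKM only in the *Dnmt1*-KO library. With a mean of at least 1 FPKM over both libraries, 1 of 6 receptors was higher. *Ccr1*, a receptor of myeloid cells, stood at 2.50 FPKM in *Dnmt1*-KO and 0.60 in *Dnmt1*-WT, a ratio of 4.17, or 2.19 with a pseudocount of 1 FPKM. *Ccr2*, which draws classical monocytes out of bone marrow and into tissue, stood at 1.41 beside 0.07 FPKM, a ratio of 20.1. *Cxcr3*, the receptor of *Cxcl9* and *Cxcl10* on activated T cells, stood at 1.21 beside 0.06 FPKM, a ratio of 20.2. With a pseudocount of 0.1 FPKM the ratios of *Ccr2* and *Cxcr3* came to 8.88 and 8.19, and with 1 FPKM to 2.25 and 2.08.

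The more abundant receptors differed less. *Cx3cr1*, a marker of the resident macrophages of the gut wall, stood at 7.84 FPKM in *Dnmt1*-KO and 4.97 in *Dnmt1*-WT, a ratio of 1.58, and *Cxcr4*, the receptor of *Cxcl12*, at 3.39 beside 3.01 FPKM, a ratio of 1.13. The atypical receptors held most of the receptor FPKM. *Ackr4*, which scavenges the *Ccr7* ligands and *Ccl25*, stood at 34.85 beside 20.61 FPKM, and *Ackr3*, which scavenges *Cxcl12*, at 21.44 beside 12.69, with the same ratio of 1.69. *Ackr1*, a venular and erythroid receptor that binds many inflammatory chemokines, stood at 3.78 beside 2.07 FPKM, a ratio of 1.83. None of these passed the threshold, although all were higher in *Dnmt1*-KO.

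The other receptors, many of them carried by lymphocytes or granulocytes, remained under 1 FPKM in both libraries. *Ccr7*, the receptor of *Ccl19* and *Ccl21*, was listed at 0 in *Dnmt1*-WT and at 0.43 FPKM in *Dnmt1*-KO, beside the 31.77 FPKM of its ligands there. *Ccr9*, the receptor of *Ccl25*, stood at 0.03 and 0.10 FPKM, and *Ccr4*, that of *Ccl17* and *Ccl22*, at 0 and 0.09. *Ccr3*, the eosinophil receptor of *Ccl11*, stood at 0.07 and 0.31 FPKM. *Ccr10*, the receptor of *Ccl27a* and *Ccl28*, was the highest of them in *Dnmt1*-WT at 0.99 FPKM and stood at 0.28 in *Dnmt1*-KO. *Ccr8*, *Cxcr5*, *Cxcr6* and *Xcr1* lay between 0 and 0.03 FPKM in the *Dnmt1*-WT library and between 0.11 and 0.53 in *Dnmt1*-KO, *Ackr2* went from 0.07 to 0.42, and *Ccr6* was at 0.07 in *Dnmt1*-WT and 0 in *Dnmt1*-KO. Over ligands and receptors together, 26 members stayed under 1 FPKM, of which 19 were higher in *Dnmt1*-KO, 4 were lower and 3 were equal.

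Many of these genes sit in clusters that arose by duplication. In the first CC ligand cluster on chromosome 11 (82035577 to 82179812, GRCm38), *Ccl2*, *Ccl7*, *Ccl11*, *Ccl12* and *Ccl8* were all higher past the threshold, and no other gene within 250 kb reached 1 FPKM. The second CC cluster on chromosome 11 (83525778 to 83664683) held *Ccl5*, *Ccl9*, *Ccl6*, *Ccl3* and *Ccl4*, of which the 3 that reached 1 FPKM were higher. Of the 10 neighbours there that reached 1 FPKM, 4 were higher and 1 was lower. The cluster on chromosome 5 from 90759298 to 90905938 held *Pf4*, *Ppbp*, *Cxcl1*, *Cxcl2*, *Cxcl5* and *Cxcl15*, of which *Pf4* alone reached 1 FPKM, and neither of its 2 such neighbours passed the threshold. Around *Cxcl9*, *Cxcl10* and *Cxcl11* on chromosome 5 (92321331 to 92363296) 0 of 7 such neighbours passed the threshold, and around *Ccl22*, *Cx3cl1* and *Ccl17* on chromosome 8 (94745684 to 94812038) 0 of 8. Of these cluster members, *Ccl5*, *Ccl7*, *Ccl8*, *Ccl9*, *Ccl17*, *Ccl22*, *Cxcl9* and *Cxcl10* reached 1 FPKM only in *Dnmt1*-KO, so they had to be higher there. Among all genes that reached 1 FPKM, 9.62% were higher past the threshold and 3.79% lower.

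Promoter CpG content was compared between the members by their call, since loss of DNMT1 acts on CpG methylation, which was not analysed here. RefSeq promoters matched 41 of the 56 members and 23 of the 30 that reached 1 FPKM. Each window surrounds a transcript start, and 5 of the 26 windows of the latter lie wholly inside the gene as RefSeq bounds it, those of *Cxcl14*, *Ccr2* and *Ccl17* and 1 each of *Ccl25* and *Ccl27a*. The median was 3 CpG per 300 bases over 15 promoters of 14 members called higher, 10.5 over 10 promoters of 8 members within the threshold and 22 for *Cxcl14*. Members under 1 FPKM also had a median of 3. Over all genes past the threshold the median was 8 for the higher and 13 for the lower. *Ccr1* and *Ccr2* held 1 CpG each and *Ccl9* and *Ccl12* held 2, whereas *Cxcr4* held 20 and *Cx3cl1* 19. *Ccl25* was an exception among the members called higher, with 52 CpG at one of its starts and 1 at the other, and *Cxcl10* and *Ccl19* held 10 each. A search on both strands for GGG followed, after any 2 bases, by TTTCC, the form bound by NF-kB, found it in 1.63% of all promoters and in 5 of the 45 promoters of members (11.1%), those of *Cxcl1*, *Cxcl2*, *Ccl20*, *Ccr3* and *Ccl9*. Of these only *Ccl9* reached 1 FPKM. No promoter was matched for *Ccl2*, *Ccl5*, *Ccl7*, *Ccl11*, *Cxcl16* or *Gm1987*, among others. Neither the CpG counts nor the 2 sequence searches covered them, so whether they hold these forms is unknown here.

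**Figure D3:**
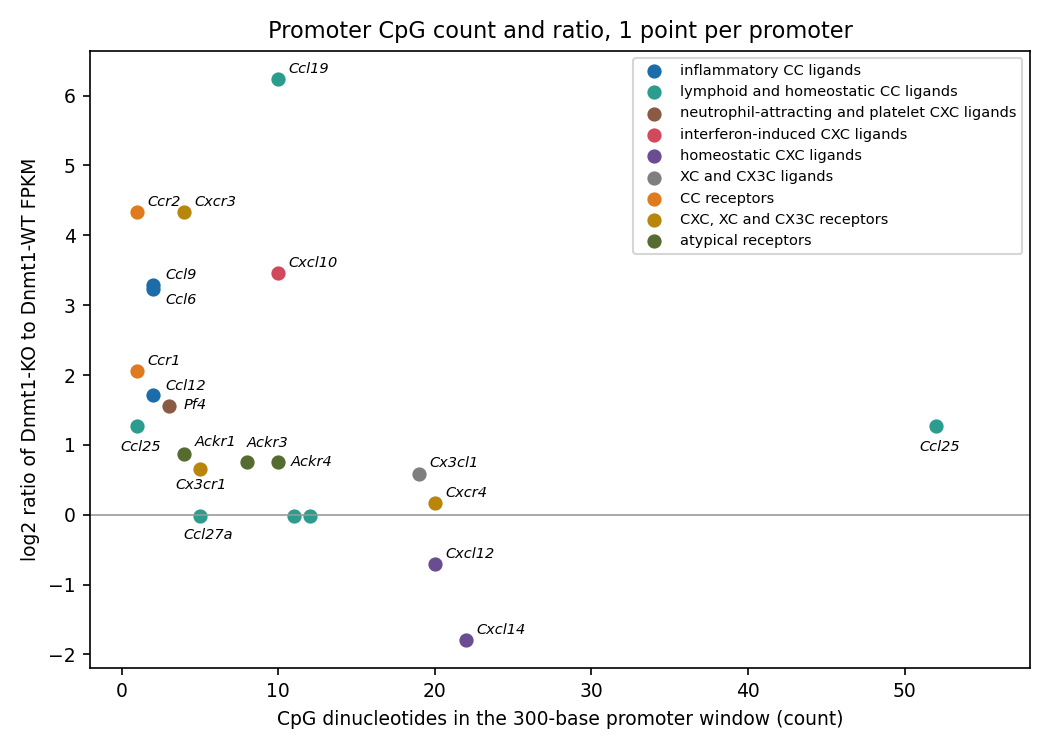
Number of CpG dinucleotides in the RefSeq promoter window (250 bases before to 50 after a transcript start) on the x axis and log2 ratio of *Dnmt1*-KO to *Dnmt1*-WT FPKM on the y axis, 1 point per promoter of members that reached 1 FPKM and were above 0 in both libraries, coloured by role. Genes with several starts have several points, 3 for *Ccl27a* and 2 for *Ccl25*; *Cxcl14* and *Cxcl12* lie at the lower right with 22 and 20 CpG.

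Markers of leukocytes and of other cells that make or carry chemokines were also higher in the *Dnmt1*-KO library. Each list is given by its summed level in *Dnmt1*-WT and *Dnmt1*-KO, its median log2 ratio over genes that reached 1 FPKM and were above 0 in both, and its genes highest by mean FPKM. All 10 macrophage markers reached 1 FPKM and 9 were higher past the threshold (147.71 and 516.08 FPKM, median 1.75), led by *C1qa*, *Lyz2* and *C1qb*. Of the 8 general leukocyte markers 7 were higher (41.20 and 129.41 FPKM, median 1.63), led by *Arhgdib*, *Cd52* and *Coro1a*, and *Ptprc*, which encodes CD45, stood at 0.80 and 2.71. Of 6 monocyte markers 4 were higher (62.82 and 188.07 FPKM, median 1.85), led by *Plac8*, *Ly6c1* and *Fcgr4*, but 3 of the 5 that reached 1 FPKM did so only in the *Dnmt1*-KO library. Nearly all of the sum was *Plac8* (33.98 and 122.90 FPKM) and *Ly6c1* (27.73 and 55.15), and which cells these transcripts came from was not tested. Of 9 dendritic cell markers 4 were higher (3.11 and 10.87 FPKM, median 2.32), led by *Zbtb46*, *Batf3* and *Clec9a*. Here 4 of the 5 that reached 1 FPKM did so only in *Dnmt1*-KO, with a mean of at least 1 FPKM 1 of 2 was higher, and the list itself holds *Xcr1* and *Ccr7*.

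The lymphocyte and granulocyte lists were low. Of 9 T cell markers 2 were higher (1.17 and 6.29 FPKM, median 2.12), led by *Cd4*, *Lck* and *Cd3g*, both of the 2 reaching 1 FPKM only in *Dnmt1*-KO, with *Cd3d*, *Cd3e* and *Cd8a* listed at 0 in *Dnmt1*-WT and at 0.22, 0.62 and 0.19 in *Dnmt1*-KO. Of 6 B cell markers 1 was higher (1.07 and 2.90 FPKM, median 1.25), led by *Cd79b*, *Cd79a* and *Blk*, with *Pax5* at 0 in both libraries. The 2 B cell markers that reached 1 FPKM did so only in *Dnmt1*-KO, so they had to be higher there. Of 6 neutrophil markers 2 were higher (8.11 and 12.90 FPKM, median 1.17), namely *Retnlg* (0.67 and 4.06) and *S100a8* (0 and 2.00), while *Camp* (6.84 and 5.71) made up most of the sum and *Mpo* was at 0 in both. Of 8 mast cell and eosinophil markers 2 were higher (39.04 and 41.94 FPKM, median 2.11), namely *Tpsb2* (0 and 2.08) and *Cpa3* (0.06 and 1.15), while nearly all of the sum was *Kit* (38.95 and 38.10), which interstitial cells of Cajal also express. The 2 higher genes of the neutrophil list and the 2 of the mast cell and eosinophil list likewise reached 1 FPKM only in *Dnmt1*-KO.

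Several other lists stand beside single members. Of the 6 lymphatic endothelial markers 5 were higher (30.17 and 74.46 FPKM, median 2.53), led by *Pdpn*, *Lyve1* and *Flt4*, beside the *Gm1987* and *Ackr4* values. Of the 8 blood endothelial markers 7 were higher (56.06 and 160.33 FPKM, median 1.35), led by *Pecam1*, *Plvap* and *Cdh5*, beside *Ackr1*. Of the 8 intestinal epithelial markers 3 were higher (145.62 and 343.56 FPKM, median 0.96), led by *Fabp1*, *Fabp2* and *Lgals4*, beside *Ccl25*. Of the 7 platelet genes listed, *Pf4* and *Ppbp* among them, 6 were higher in *Dnmt1*-KO by any amount and 1 was lower (30.52 and 59.88 FPKM). Only *Pf4*, higher past the threshold, and *Itga2b*, lower past it, reached 1 FPKM (median 0.03). *Itga2b* stood at 11.55 FPKM in *Dnmt1*-WT beside 4.13 in *Dnmt1*-KO, *Gp9* at 0.08 and 0.21 and *Gp1ba* at 0.34 and 0.41. *Gp5* and *Treml1* were listed at 0 in *Dnmt1*-WT and at 0.25 and 0.06 in *Dnmt1*-KO.

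Of 8 erythroid markers 4 were higher and 1 was lower (172.28 and 562.17 FPKM, median 2.00), led by *Hbb-bs*, *Hba-a2* and *Hbb-b1*, the last at 46.41 in *Dnmt1*-WT and listed at 0 in *Dnmt1*-KO. Of 8 adipocyte markers 7 were higher (110.62 and 1208.12 FPKM, median 5.78), led by *Fabp4*, *Cfd* and *Adipoq*. Of these 7, 4 reached 1 FPKM only in *Dnmt1*-KO, and with a mean of at least 1 FPKM 7 of 7 were higher. All 8 smooth muscle markers were lower, 2 of them past the threshold (16618.04 and 12061.21 FPKM, median -0.38), led by *Acta2*, *Actg2* and *Myh11*. Of the 8 fibroblast markers 6 were higher, 2 of them past the threshold (3317.78 and 5074.24 FPKM, median 0.48), led by *Col3a1*, *Col1a1* and *Col1a2*. Of the 8 enteric glia and neuron markers 1 was higher past the threshold (372.93 and 462.07 FPKM, median 0.14). The part of these cell types in the chemokine and receptor values was not tested.

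**Figure D4:**
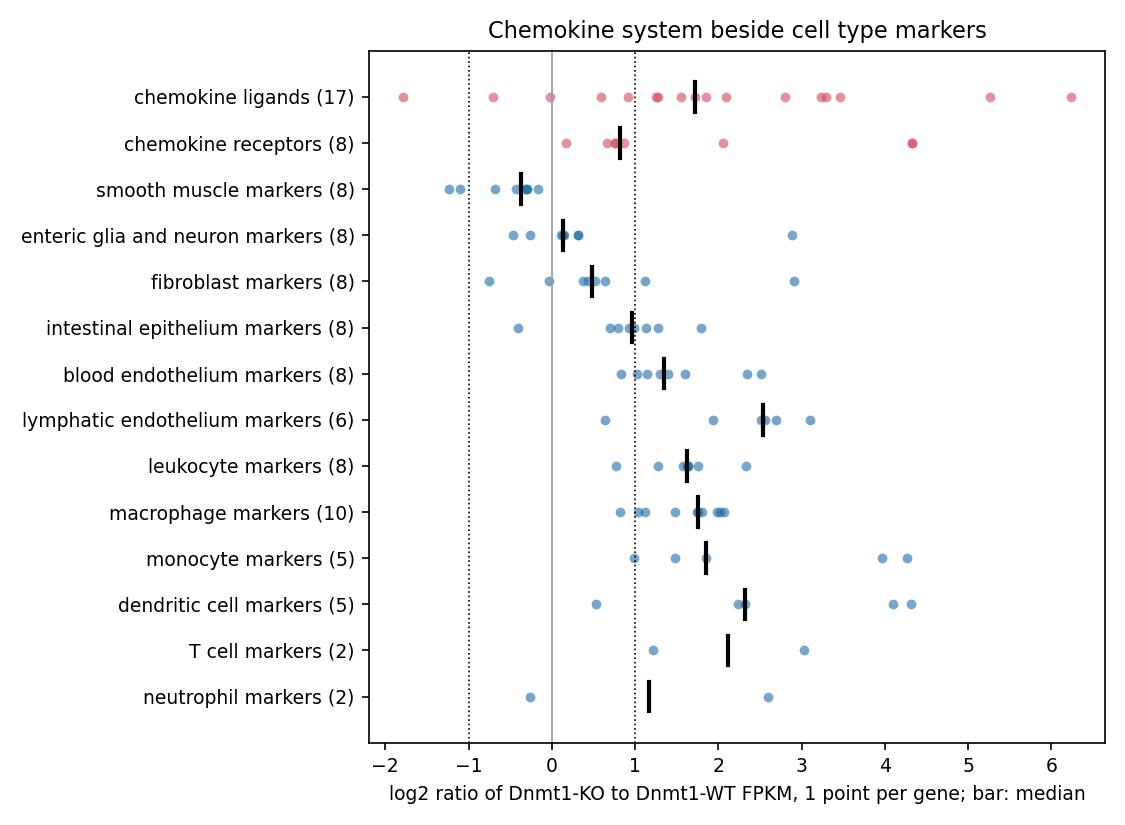
Log2 ratio of *Dnmt1*-KO to *Dnmt1*-WT FPKM for genes that reached 1 FPKM and were above 0 in both libraries, 1 point per gene, with the chemokine ligands and 8 of the 9 receptors beside marker lists of cell types, a black bar at each median, dotted lines at a 2-fold ratio and the number of genes in parentheses. The macrophage, leukocyte and endothelial markers lie mostly to the right of 0, as most ligands do, and the smooth muscle markers to the left.

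Genes upstream and downstream of the chemokines were counted in the same way. Among the 22 inducers of chemokine transcription listed, 15 reached 1 FPKM, 4 were higher past the threshold and none lower, with a median log2 ratio of 0.48. By any amount, 85.7% of the inducers above 0 in either library were higher in *Dnmt1*-KO, against 51.5% of all such genes. The most abundant, *Nfkbia*, *Rela* and *Nfkb1* of the NF-kB pathway, stood at 30.72 and 32.28, 19.80 and 26.79, and 18.74 and 18.90 FPKM, *Dnmt1*-WT first. The higher genes, named after their values were seen, included *Irf7* (3.32 and 13.15 FPKM) of the interferon response, *Tnfaip3* (0.96 and 2.21) and the lymphotoxin gene *Ltb* (0.03 and 1.73). The cytokines *Tnf*, *Il1b* and *Ifng* stayed under 1 FPKM, at 0.15 and 0.38, 0.16 and 0.16, and 0 and 0.10. So did *Il1a* (0.04 and 0.30) and the 2 inducers that were lower by any amount, *Il6* (0.27 and 0.10) and *Lta* (0.41 and 0.05).

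Of 30 genes of receptor signalling and its regulators, 26 reached 1 FPKM, 7 were higher and 3 lower, with a median log2 ratio of 0.11. Of the 26, 6 reached 1 FPKM only in the *Dnmt1*-KO library. The ubiquitous *Gnai2* (203.38 and 206.57 FPKM), *Cdc42* (166.07 and 168.00) and *Rac1* (136.16 and 127.45) hardly differed. Those higher, named after their values were seen, included genes largely restricted to leukocytes, such as *Rac2* (2.62 and 7.63 FPKM), *Vav1* (0.66 and 2.26), *Dock2* (0.43 and 1.71) and the integrin *Itgb2* (0.71 and 4.96). The 3 lower genes were *Rgs1* (70.50 and 26.64 FPKM) and *Rgs2* (32.68 and 15.65), which shorten G protein signals, and *Itga4* (3.44 and 1.69). Of the 14 genes of chemokine presentation and cleavage that reached 1 FPKM, none passed the threshold in either direction, with a median log2 ratio of 0.12. The most abundant were *Sdc4* at 88.13 and 98.63, *Mmp2* at 64.36 and 67.79 and *Sdc3* at 46.18 and 60.79 FPKM.

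Other immune gene groups are given for comparison with the 20 of 30 chemokine and receptor genes. Of the chemoattractants and receptors outside the family, 7 of 11 that reached 1 FPKM were higher past the threshold. Of the 31 interleukin and interleukin receptor genes that reached 1 FPKM, 7 were higher and 2 lower, with a median log2 ratio of 0.20. Of the 16 such genes of the TNF superfamily, 4 were higher and 2 lower, with a median of 0.32. Only 4 of these interleukin genes and 2 of the TNF superfamily reached 1 FPKM through the *Dnmt1*-KO library alone, beside 13 of the 30 chemokine and receptor genes, and the difference between the families has no test.

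Some members share sequence with other genes, and whether counting used strand is not stated. In GENCODE M21 exons of *Ccl27a* overlap those of *Il11ra1* (47.18 FPKM in *Dnmt1*-WT beside 49.61 in *Dnmt1*-KO), those of *Cxcl10* overlap *Art3* (36.02 and 43.13) and those of *Ccl25* overlap *Elavl1* (17.60 and 12.69). Exons of *Ackr1* overlap *Cadm3* on the same strand (27.62 and 31.60 FPKM), those of *Ackr4* overlap *Acad11* (6.93 and 5.91) and those of *Cxcl16* overlap *Zmynd15* (1.37 and 1.35). Reads from the shared stretches could have been assigned to either gene. Of the overlapping genes listed, none differed between the libraries by as much as 2-fold.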

How the data were processed

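RNA of jejunal tunica muscularis was extracted with the mirVana kit and sequenced from TruSeq RNA libraries, 1 for each genotype. The submitters' processing notes name TopHat 1.4.1 and Cufflinks 2.0.2 and the mm10 build. The deposited table gives the FPKM computed by the authors, to 2 decimals, for 18159 gene symbols. It also gives, as deposited by the authors, the number of transcript variants per library and their own ratio of the genotypes, which was not used. FPKM summed to 429698 in *Dnmt1*-WT and 460845 in *Dnmt1*-KO, with no read counts.

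Ratios are plain FPKM ratios without a pseudocount or further scaling. With 1 library per genotype no test was run and no p-value is given. Members were chosen by symbol, and all members with at least 1 FPKM in at least 1 library are named, except for 1 receptor gene that is not reported here but stands in the counts and sums. Of the marker, signalling, presentation and inducer lists, counts, medians and, except where single genes are given instead (neutrophils, mast cells, platelets) or none is named (enteric glia and neurons), the 3 genes highest by mean FPKM are given, and other genes of these lists were named after their values were seen. Members and lists were chosen with earlier results of these data known. Clusters are members within 1 Mb of each other, with coordinates from RefSeq (GRCm38.p6), and promoters of 300 bases are from the same source. Exon overlaps are from GENCODE M21. Alternatives covered scaling, pseudocount, filter, fold and genes listed at 0. The counting was tested on simulated data. Python 3.11.15, numpy 2.4.6, pandas 2.3.3 and matplotlib 3.10.9 were used.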

Additional observations from a re-analysis of the deposited data

How the results depend on the processing

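Against 20 members higher, 1 lower and a median log2 ratio of 1.64, the 4 other scalings of the libraries kept 20 and 1, and scaling to the FPKM sum, which shifted every log2 ratio down by 0.10, gave a median of 1.54. The median was 1.82 with a pseudocount of 0.1 FPKM, 1.10 with a pseudocount of 1, 1.41 with all genes above 0 in 1 library, 1.27 with at least 0.5 FPKM in 1 library, 1.41 with at least 5 FPKM and 1.27 with a mean of at least 1 FPKM. The count of higher members was 36 of 53 with all genes above 0 in 1 library (16.2% of all genes) and 10 of 17 with at least 5 FPKM (6.21%). The count of lower members was 4 of 53 with all genes above 0 in 1 library (7.57% of all genes). It was 2 of 36 with at least 0.5 FPKM (4.30%) and 2 of 30 with a 1.5-fold threshold (11.4%). With a pseudocount of 1, 2 members no longer passed the threshold, among them *Ccl2* at a ratio of 1.90, while the other 154 values of single members kept their side of it. Their direction held too, except for *Ccl27a*, whose ratio of 0.985 came to 1.01 with median centring and with the upper quartile and to 1.0 with the trimmed mean. Stricter filters tested fewer members and looser ones more, and other causes of these shifts were not tested. No paired analysis was possible because each genotype has 1 library, and for the same reason no library could be left out. Values of a few hundredths of an FPKM, as for *Ccl19*, *Ccr2* and *Cxcr3* in *Dnmt1*-WT, limit the precision of their ratios, and the read counts behind them are unknown.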

Other observations

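Of 16 chemoattractants and receptors outside the chemokine family that are listed, 11 reached 1 FPKM and 7 were higher in *Dnmt1*-KO past the 2-fold threshold, none lower, with a median log2 ratio of 1.13. The abundant ligands *Rarres2*, which encodes chemerin, and *Mif* stood at 572.92 and 153.22 FPKM in *Dnmt1*-WT beside 556.54 and 178.79 in *Dnmt1*-KO. *Cd74*, the MIF receptor and invariant chain of MHC class II, stood at 21.19 and 357.75 FPKM, a ratio of 16.9. The other higher genes, named after their values were seen, were the chemerin receptor *Cmklr1* (2.76 and 8.05 FPKM), the complement receptors *C5ar1* (1.58 and 6.50) and *C3ar1* (1.28 and 4.30), *S1pr1* (4.66 and 10.75), *Ptafr* (0.92 and 1.91) and *Fpr2*, listed at 0 in *Dnmt1*-WT and at 1.12 FPKM in *Dnmt1*-KO. *Csf1*, the macrophage growth factor, stood at 13.72 and 15.56 FPKM and its receptor *Csf1r* at 14.79 and 26.16.

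Of the 5 family genes outside the symbol rule that reached 1 FPKM, none passed the threshold. *Ccrl2*, an atypical receptor-like gene that binds chemerin, stood at 4.28 FPKM in *Dnmt1*-WT beside 2.49 in *Dnmt1*-KO, and *Ccr1l1* at 0 and 0.12.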
